A study of Mus musculus with 4 samples.

Results

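Transcripts of cell cycle genes were followed in single bone marrow cells of C57BL/6 mice, as 24 genes of S phase and 30 genes of G2 and mitosis (G2/M). They came from a list of 55 genes, 25 for S phase and 30 for G2/M, and were taken where the gene had a row in the tables of all 4 plates, which left 54 of the 17508 gene names of the series. Clspn, which encodes an adaptor of the replication checkpoint, was the gene left out. It had no row in the table of the plate that held the CD44- sort alone, 6, 91.1 and 152 transcripts in CD44+ replicates 1, 2 and 3, and 5 and 10 in CD44- replicates 2 and 3. From this list the members were taken by the presence of a row alone. The list itself was drawn up with earlier results of these data known.

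The cells lacked CD51, an integrin chain of marrow stroma, and the labels call them TNCs, an abbreviation they do not spell out. They were sorted as CD44+ or CD44-, CD44 being a receptor for hyaluronan, with the same strain and tissue in both groups and no treatment or genotype that differed. No source used here gives the ages or the number of the mice, or says which plate came from which animal. The p-values therefore measure the spread between libraries alone, and that spread may be technical. Replicate 1 of each sort is a plate of its own from 1 flow cell (pair 1). Replicates 2 and 3 are the upper and lower rows of plates that held both sorts, from the other flow cell (pairs 2 and 3).

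Wells entered the comparisons with 1000 or more gene transcripts, which left 238 CD44+ and 105 CD44- wells. CD44+ libraries 1, 2 and 3 held 56, 95 and 87 wells with medians of 1994, 5162 and 11225 transcripts. CD44- libraries 1, 2 and 3 held 44, 24 and 37 wells with medians of 1848, 1795 and 2544. Wells of low quality, those with at least 50% mitochondrial transcripts or at least 10% from Kcnq1ot1 and 4 transcripts that accompany it, made up 55.4%, 41.1% and 25.3% of the CD44+ wells and 43.2%, 4.17% and 10.8% of the CD44- wells. Of the marker lists, 12 of 12 early erythroid genes were found, with summed levels of 4288 to 9817 CPM (transcripts scaled to a common total per summed library) in the CD44+ and 1610 to 2610 CPM in the CD44- libraries. The 12 stromal genes summed to 167 to 1362 CPM against 5564 to 28804 CPM. The 12 neutrophil and monocyte genes ranged from 4921 to 12426 CPM against 1216 to 34994 CPM, and the 13 B progenitor genes from 216 to 3328 CPM against 2169 to 2904 CPM. The 10 late erythroid genes with a row ranged from 1599 to 3013 CPM against 2463 to 35871 CPM. Endothelial genes (with Kdr at 0), T and NK genes (with Cd4 at 0) and megakaryocyte genes each stayed at or under 278 CPM in every library. The part that these mixtures of cells have in the differences below was not tested, and in the sums fewer cells in cycle and less cell cycle RNA per cell cannot be told apart.

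Cells prepare for division in 2 transcriptional waves. In late G1 and S phase, E2F factors switch on the genes that load and run the replication helicase, make deoxynucleotides and package new DNA. In G2, the cyclin, kinase, kinetochore and spindle genes follow, many of them through a promoter element called the cell cycle genes homology region (CHR), which lies near CCAAT boxes bound by NF-Y and is held silent in resting cells by the DREAM complex. In marrow, erythroid and lymphoid precursors divide often, and stromal cells seldom do.

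The promoters of both groups carry these elements to different extents, and 4 are shown because their genes are followed closely below. Promoters run from 250 bases before to 50 bases after the start of the gene, are taken from RefSeq (build GRCm38.p6) and are written 5′ to 3′ on the strand of the gene. Capitals mark the searched motifs on either strand: TTTGAA (CHR), TTTGGCGC or TTTCGCGC (E2F), and CCAAT. Mcm6 (chr1:128359656-128359955, minus strand) encodes a subunit of the replication helicase. Cdk1 (chr10:69352863-69353162, minus strand) encodes the kinase that drives entry into mitosis. Mki67 (chr7:135716330-135716629, minus strand) encodes the Ki-67 protein of dividing cells, and Top2a (chr11:99024140-99024439, minus strand) the topoisomerase that untangles sister chromatids.
Mcm6: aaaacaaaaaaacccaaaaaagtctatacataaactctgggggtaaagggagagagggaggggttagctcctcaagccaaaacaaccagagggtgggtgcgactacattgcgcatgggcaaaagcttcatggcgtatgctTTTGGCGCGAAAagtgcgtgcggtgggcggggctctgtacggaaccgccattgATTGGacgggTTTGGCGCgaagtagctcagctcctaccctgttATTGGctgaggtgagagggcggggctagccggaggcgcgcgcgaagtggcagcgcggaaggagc
Cdk1: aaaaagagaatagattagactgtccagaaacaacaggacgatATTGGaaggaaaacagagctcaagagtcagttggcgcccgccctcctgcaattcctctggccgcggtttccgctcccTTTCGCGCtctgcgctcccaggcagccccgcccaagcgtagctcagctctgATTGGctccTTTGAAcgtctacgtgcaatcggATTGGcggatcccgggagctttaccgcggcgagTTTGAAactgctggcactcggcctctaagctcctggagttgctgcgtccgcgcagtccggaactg
Mki67: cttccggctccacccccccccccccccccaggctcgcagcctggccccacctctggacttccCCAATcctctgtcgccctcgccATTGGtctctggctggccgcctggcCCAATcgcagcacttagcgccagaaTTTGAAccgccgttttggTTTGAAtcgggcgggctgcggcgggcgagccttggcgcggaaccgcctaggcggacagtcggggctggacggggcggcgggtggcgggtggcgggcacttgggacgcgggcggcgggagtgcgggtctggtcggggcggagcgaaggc
Top2a: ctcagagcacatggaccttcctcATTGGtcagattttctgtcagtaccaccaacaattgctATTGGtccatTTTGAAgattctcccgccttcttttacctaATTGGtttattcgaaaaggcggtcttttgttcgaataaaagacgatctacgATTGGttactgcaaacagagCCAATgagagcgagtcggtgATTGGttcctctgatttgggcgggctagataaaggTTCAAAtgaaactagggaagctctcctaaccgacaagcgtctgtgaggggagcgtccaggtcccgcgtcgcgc
Mcm6 held 3 E2F matches, 2 of which overlap, 2 CCAAT boxes and no CHR. Cdk1 held 2 CHR matches, 3 CCAAT boxes and 1 E2F match, Mki67 2 CHR matches and 3 CCAAT boxes, and Top2a 2 CHR matches and 6 CCAAT boxes. Of 24 promoters of 21 S members, 8 (33.3%) held an E2F match, against 4.0% of the 25 promoters of 25 G2/M members and 0.813% of all 32851 promoters in the table. The CHR letters stood in 68.0% of the G2/M promoters, 8.33% of the S promoters and 17.9% of all, and at least 2 CCAAT boxes in 56.0%, 33.3% and 11.7%. A match is a description of these letters, and binding was not measured.

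The members ranged widely in level. Mean levels over the 6 libraries went from 29.8 to 664 CPM in the S group (median 124) and from 18.3 to 772 CPM in the G2/M group (median 76.7). The method tags each transcript once, so these levels count molecules and are not scaled by length. Hmgb2, a chromatin protein that is also made outside mitosis, and Pcna, the sliding clamp of DNA polymerase, led their groups. They were found in 63.3% and 54.8% of kept wells, whereas Kif20a, a motor of the dividing spindle, was found in 13.7% and Ung, a uracil repair enzyme, in 14.6%. The 4 highest members held 41.7% of all S transcripts and 48.0% of all G2/M transcripts, so both group shares lean on few genes.

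The share of a cell's transcripts that came from S members did not separate the sorts in the mean over all kept wells. The mean over wells was 0.270%, 0.230% and 0.546% in CD44+ replicates 1, 2 and 3, and 0.289%, 0.379% and 0.373% in CD44- replicates 1, 2 and 3. That is 0.349% ± 0.172 against 0.347% ± 0.0505 (SD, n = 3 libraries each), higher in the CD44+ sort on 1 of 3 pairs. G2/M members took 0.318%, 0.258% and 0.645% in the CD44+ and 0.343%, 0.256% and 0.388% in the CD44- libraries. Their means were 0.407% ± 0.209 and 0.329% ± 0.0672, and the sort difference was smaller than the spread between CD44+ libraries. CD44+ replicate 3 stood highest for both groups. Scores over members get no test here.

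The same transcripts gave another picture when each library was summed, so that deep wells weighed more. The S share of the sums was 0.377%, 0.499% and 0.642% in the CD44+ libraries and 0.277%, 0.319% and 0.290% in the CD44- libraries, higher in CD44+ on all 3 pairs and without overlap. In G2/M it was 0.356%, 0.449% and 0.732% against 0.372%, 0.214% and 0.333%, higher in CD44+ on pairs 2 and 3. On pair 1, the other flow cell, the log2 ratio of the summed G2/M level was -0.06, against 1.07 and 1.13 on pairs 2 and 3; for S it was 0.44, 0.65 and 1.15.

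**Figure D1:**
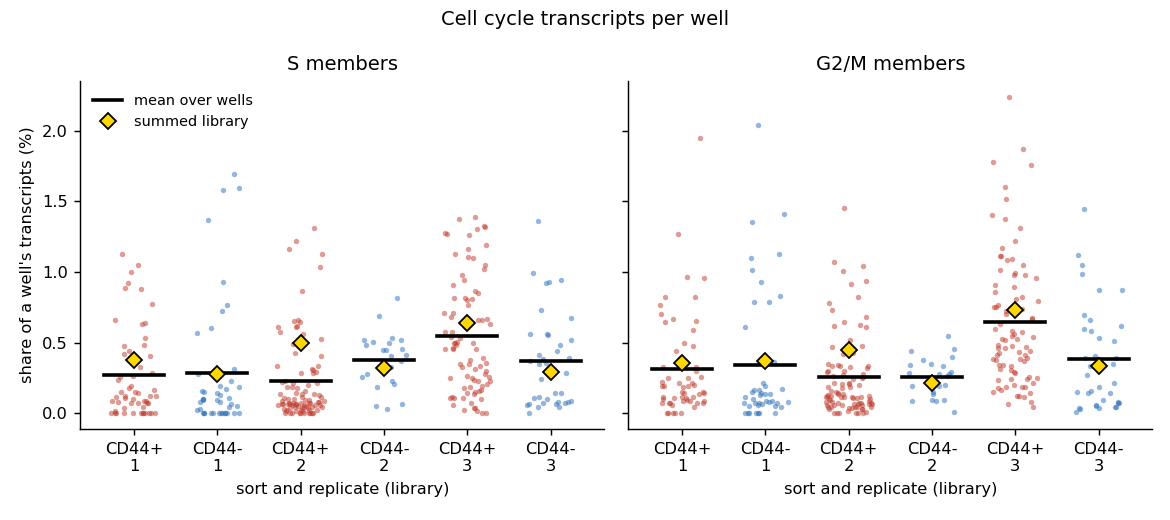
Share of each kept well's transcripts from the 24 S members (left) and the 30 G2/M members (right), in percent, by sort and replicate. Points are wells, black bars the mean over wells and diamonds the share of the summed library; in CD44+ replicate 2 the S diamond (0.499%) lies above the bar (0.230%), and in CD44- replicates 2 and 3 it lies below.

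The 2 summaries of the S share lay furthest apart in CD44+ replicate 2, and its deep wells differed from its shallow ones. The 21 wells above 16000 transcripts had a mean S share of 0.588% ± 0.405 (SD over wells), against 0.129% ± 0.150 in the other 74, and they held 93.0% of its S and 88.1% of its G2/M transcripts but 69.9% of all its transcripts. In CD44+ replicate 3 the 37 wells above that depth had a mean of 0.680% against 0.447% in the other 50. The 10 wells with most S transcripts in CD44+ replicate 2 held 77.7% of them. In CD44- replicates 2 and 3 only 1 and 2 wells lay above that depth. Their mean S shares were 0.485% and 0.489%, against 0.374% and 0.366% in the other 23 and 35 wells. Over all depths, the S share and the depth had a Spearman's rho of -0.21 and -0.54 in CD44- replicates 2 and 3. It was 0.20 in CD44- replicate 1 and 0.33 to 0.38 in the CD44+ libraries. Each rho covers 24 to 95 wells, points that share a library, and depth enters both measures.

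**Figure D2:**
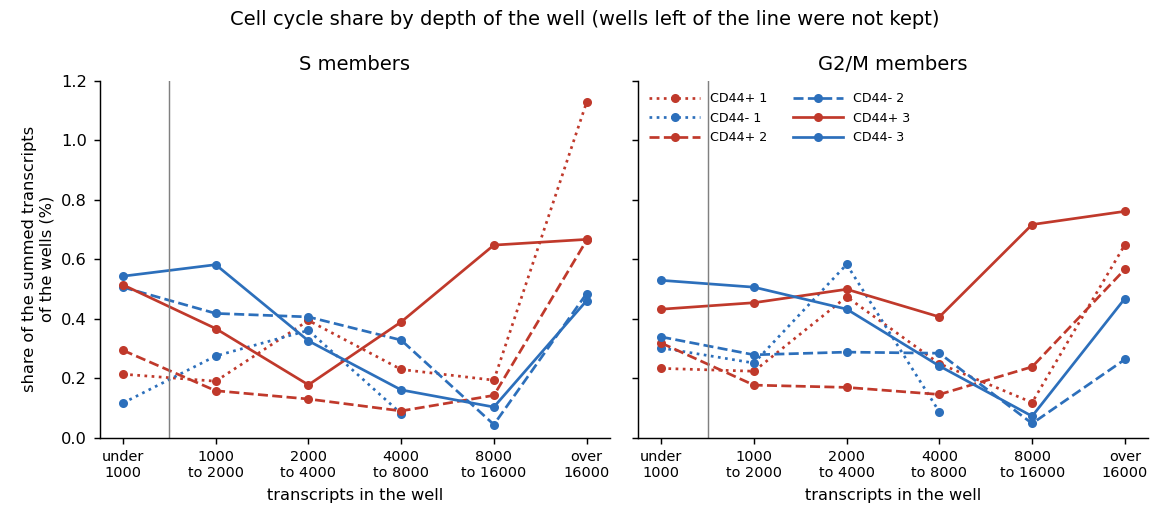
Share of summed transcripts from S members (left) and G2/M members (right), in percent, by the number of transcripts in the well, 1 line per library. Above 16000 transcripts the CD44+ lines of replicates 2 and 3 reach 0.664% and 0.667% for S; the last 2 bins hold at most 2 wells each in each CD44- library and in CD44+ replicate 1, and bins left of the vertical line were not kept.

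S and G2/M shares rose and fell together across cells. Within libraries their Spearman's rho ranged from 0.407 to 0.708, and from 0.318 to 0.666 after every well was thinned to 1000 transcripts. With mitochondrial genes, Kcnq1ot1 and its companions out of the denominator it ranged from 0.346 to 0.595. In CD44+ replicates 1, 2 and 3 it fell from 0.566, 0.627 and 0.708 to 0.346, 0.358 and 0.524. CD44- replicate 3 alone did not fall (0.584 and 0.595). Each rho is a description across wells of 1 library. In the thinned data, 61 of 342 wells had at least 5 transcripts of both groups, 39 of S only, 46 of G2/M only and 196 of neither, and 29 had none of the 54 genes. Wells with at least 5 of either group made up 32.1%, 24.2% and 71.3% of CD44+ replicates 1, 2 and 3 and 31.8%, 43.5% and 51.4% of CD44- replicates 1, 2 and 3. Among all 342 wells, 46 had 4 or 5 S transcripts and 45 had 4 or 5 of G2/M, so the classes are ranges and not phases.

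Between the sorts, 41 of the 54 members had enough counts to test, 21 of S and 20 of G2/M, and 0 passed in edgeR over all genes, where 1 of 2463 genes (0.0406%) was higher in the CD44+ sort. At an unadjusted p under 0.05 there were 6 S and 4 G2/M members, and 470 of all genes (19.1%). A fit that took the pair as a block called 1 member, Cenph, higher, where 43 genes (1.75%) were. DESeq2 called 1 of 54 members, Mcm6, higher, where 41 of 16917 genes (0.242%) were. The tested S members had a median log2 difference of 0.86 with 19 of 21 above 0, and the tested G2/M members 0.57 with 19 of 20 above 0, against -0.04 over all genes, of which 47.5% were above 0. In 9 of 21 tested S and 8 of 20 tested G2/M members every CD44+ library stood above every CD44- library, as did 414 of all 2463 tested genes (16.8%). The members tested are those with enough counts, and were chosen with earlier results known.

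Of the genes that license and unwind origins, all 6 helicase subunits Mcm2 to Mcm7 were tested and above 0. Mcm6 stood at 374, 440 and 467 CPM in CD44+ replicates 1, 2 and 3 and at 186, 207 and 145 CPM in CD44- replicates 1, 2 and 3. The groups did not overlap (log2 difference 1.16, SE 0.32, adjusted p = 0.125 in edgeR). Mcm7 stood at 234, 364 and 520 CPM against 103, 405 and 183 CPM, and its groups overlapped because CD44- replicate 2 exceeded its CD44+ partner (0.60, SE 0.46). Mcm5 and Mcm4 had differences of 1.15 and 1.13, and the loading factors Cdc6 and Cdt1 0.99 and 0.81. None of these passed the adjusted threshold.

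Tipin, a partner of the replication fork that helps to hold it stable, had the largest difference among the tested S members. Its values were 100.2, 88.6 and 161 CPM in the CD44+ and 20.6, 59.2 and 25.2 CPM in the CD44- libraries (1.67, SE 0.49, adjusted p = 0.136), without overlap but from 2, 6 and 4 transcripts in the CD44- libraries. Pcna stood at 710, 813 and 946 CPM against 670, 365 and 479 CPM (0.57, SE 0.37). It too did not overlap, by a narrow margin on pair 1.

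The enzymes that make deoxynucleotides went separate ways. Ribonucleotide reductase has a large subunit, Rrm1, and a small subunit, Rrm2, that accumulates in S phase. Rrm1 stood at 194, 270 and 433 CPM in the CD44+ and 124, 98.7 and 101 CPM in the CD44- libraries, without overlap (1.34, SE 0.36, adjusted p = 0.117). Rrm2 stood at 254, 538 and 648 CPM against 237, 741 and 649 CPM, with a difference near 0 (-0.27, SE 0.42, adjusted p = 0.755) whose sign turned with the processing. In the wells left out for low depth, Rrm2 stood at 1253 and 1652 CPM in the CD44- and at 734 and 1267 CPM in the CD44+ rows of pairs 2 and 3, each above the kept wells of the same library. The part of these wells in the Rrm2 difference was not tested. Tyms, thymidylate synthase, stood at 207, 84.1 and 104 CPM against 82.4, 39.5 and 37.8 CPM (1.23, SE 0.65). The chromatin remodeller gene Hells was the other S member below 0, at 40.1, 68.0 and 72.7 CPM against 61.8, 78.9 and 44.1 CPM (-0.09, SE 0.42), with full overlap.

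**Figure D3:**
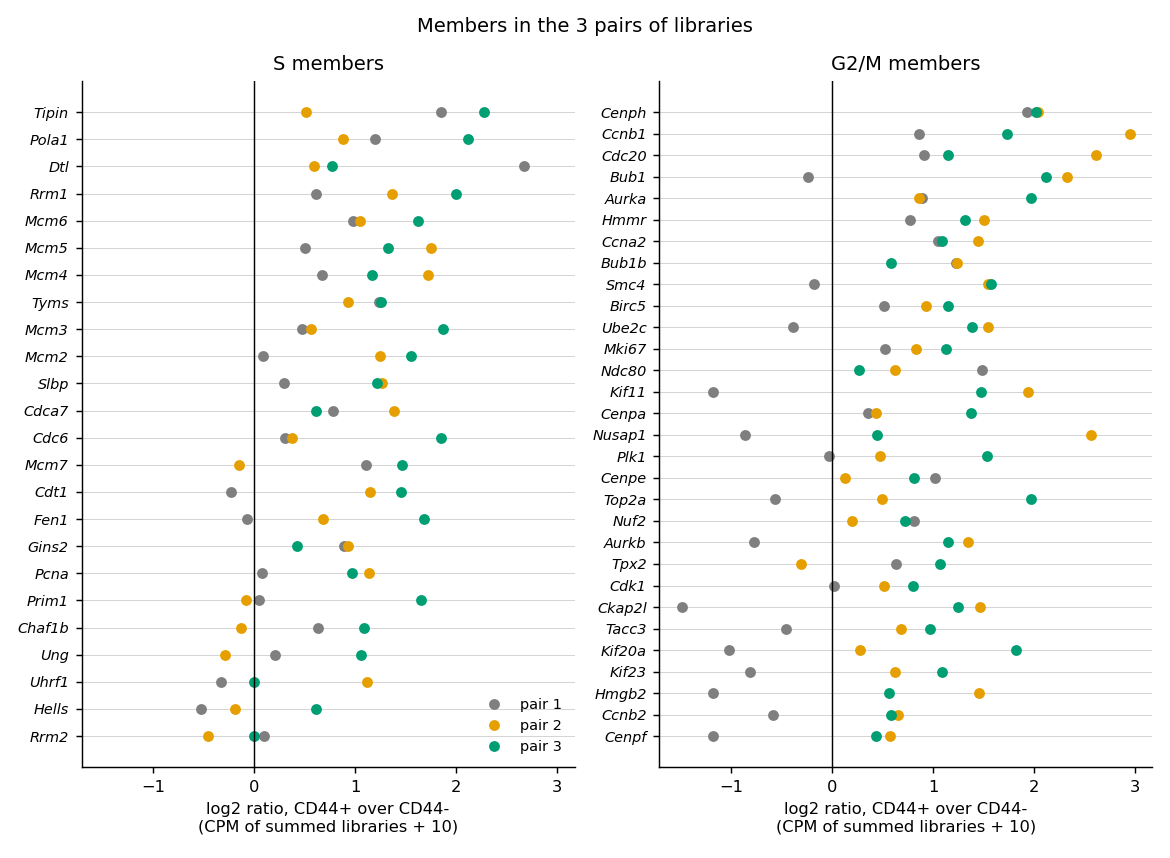
Log2 ratio of each member between the CD44+ and CD44- library of a pair, after adding 10 CPM to each, for S members (left) and G2/M members (right), 1 point per pair. Of the 30 G2/M members, 15 lie above 0 on pair 1, 29 on pair 2 and 30 on pair 3; of the 24 S members, 20, 18 and 23.

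Among kinetochore genes, Cenph (chromosome 13 from 100759674 to 100775899, minus strand, GRCm38) was the member with the smallest p. It encodes a protein of the inner kinetochore. It stood at 107, 71.5 and 107 CPM in CD44+ replicates 1, 2 and 3 and at 20.6, 9.87 and 18.9 CPM in the CD44- libraries, which is 2, 1 and 3 transcripts there. The log2 difference was 2.39 (SE 0.55, adjusted p = 0.0898 in edgeR) and 2.43 in the blocked fit (SE 0.58, adjusted p = 0.0373). With the CD44- libraries at 3 transcripts or fewer, the size of this difference is poorly known. Cenpf, of the outer kinetochore, was the G2/M member below 0, at 40.1, 63.5 and 122 CPM against 103, 39.5 and 88.2 CPM (-0.14, SE 0.50). Its sign, too, turned with the processing.

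The cyclins and their kinase differed in size. Ccna2, cyclin A2 of S and G2, stood at 160, 205 and 332 CPM against 72.1, 69.1 and 151 CPM, without overlap (1.12, SE 0.39, adjusted p = 0.180 in edgeR). Ccnb1, cyclin B1 of mitosis, stood at 120, 67.2 and 170 CPM against 61.8, 0 and 44.1 CPM. The 0 in CD44- replicate 2 allows up to 29.6 CPM at that depth, and the difference was 1.60 (SE 0.78, adjusted p = 0.301). Cdk1, their kinase, stood at 73.5, 145 and 260 CPM against 72.1, 98.7 and 145 CPM, with overlap (0.47, SE 0.42). Its 2 lowest libraries are the 2 of pair 1.

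Of the genes of chromosome structure that are named here, Mki67 was the one whose groups did not overlap. It stood at 495, 607 and 826 CPM in the CD44+ and 340, 336 and 372 CPM in the CD44- libraries (0.76, SE 0.29, adjusted p = 0.213). Top2a stood at 221, 450 and 647 CPM against 330, 316 and 158 CPM (0.54, SE 0.45). Smc4, a condensin subunit, stood at 254, 364 and 563 CPM against 288, 118 and 183 CPM (0.84, SE 0.44). Hmgb2 stood at 327, 854 and 1429 CPM against 753, 306 and 963 CPM (0.18, SE 0.53). In Top2a, Smc4 and Hmgb2 the CD44- library was the higher one on pair 1, as it was for 15 of 30 G2/M members there.

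Other genes of the cycle, from lists kept apart from the members, gave 0 calls between the sorts with or without the block. Of 33 other replication genes 16 were tested and 13 were above 0 (median log2 difference 0.67), among them the licensing inhibitor gene Gmnn (1.60, SE 0.40) and the origin subunit gene Orc2 (1.63, SE 0.49). Of 34 other mitosis genes 17 were tested and 15 were above 0 (median 0.33), with Cdca8, of the chromosomal passenger complex, at 1.12. Of 19 G1/S regulators 10 were tested and 6 were above 0 (median 0.12), with the repressor gene E2f4 at 1.10 and cyclin D2 (Ccnd2) at -1.20. Of 8 CDK inhibitor genes 2 were tested. Cdkn1b, which encodes p27, stood at 26.7, 75.1 and 34.6 CPM in the CD44+ and 51.5, 178 and 195 CPM in the CD44- libraries (-1.67, SE 0.53, adjusted p = 0.155). Cdkn1a, which encodes p21, stood at 6.68, 44.7 and 8.79 CPM against 82.4, 69.1 and 94.5 CPM, without overlap (-2.0, SE 0.73, adjusted p = 0.198). Both were lower in the CD44+ library of every pair. The 6.68 CPM of Cdkn1a in CD44+ replicate 1 lies below 20.0 CPM, the level of 3 transcripts in that library. The size of its difference is therefore poorly known.

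Cells were next grouped by whether they held a transcript of a lineage marker, and compared within each library. Car1 marks early erythroid cells, Alas2 later erythroid cells that make heme, Vpreb1 B cell progenitors, Mpo the neutrophil lineage and Cxcl12 the stroma. The classes overlap, since 133 of the 343 wells held 1 of the 5 markers, 72 held 2, 49 held 3, 12 held 4 and 3 held all 5. A marker found in a well need not be that cell's own. In CD44- replicate 2, with a median of 1795 transcripts, Mpo was found in 18 and Cxcl12 in 16 of the 24 kept wells. A transcript from another well of the plate cannot be told apart from the cell's own.

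Wells with Car1 had more of both groups of cell cycle transcripts in all 5 libraries that could be compared. The S share was 0.563%, 0.324% and 0.616% with Car1 against 0.108%, 0.191% and 0.326% without in CD44+ replicates 1, 2 and 3, and 0.402% and 0.475% against 0.360% and 0.224% in CD44- replicates 2 and 3. The G2/M share was 0.464%, 0.325% and 0.742% against 0.236%, 0.230% and 0.341% in the CD44+ libraries, and 0.300% and 0.533% against 0.218% and 0.176% in CD44- replicates 2 and 3. The mean differences were 0.234 ± 0.158 and 0.233 ± 0.146 percentage points (SD, n = 5 libraries), and 0.232 and 0.198 after thinning to 1000 transcripts. Wells with Car1 were deeper in 4 of the 5 libraries, and 15.4% of them were of low quality against 47.9% of wells without; the part of these in the difference was not tested. CD44- replicate 1 had only 2 wells with Car1 and was not compared.

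**Figure D4:**
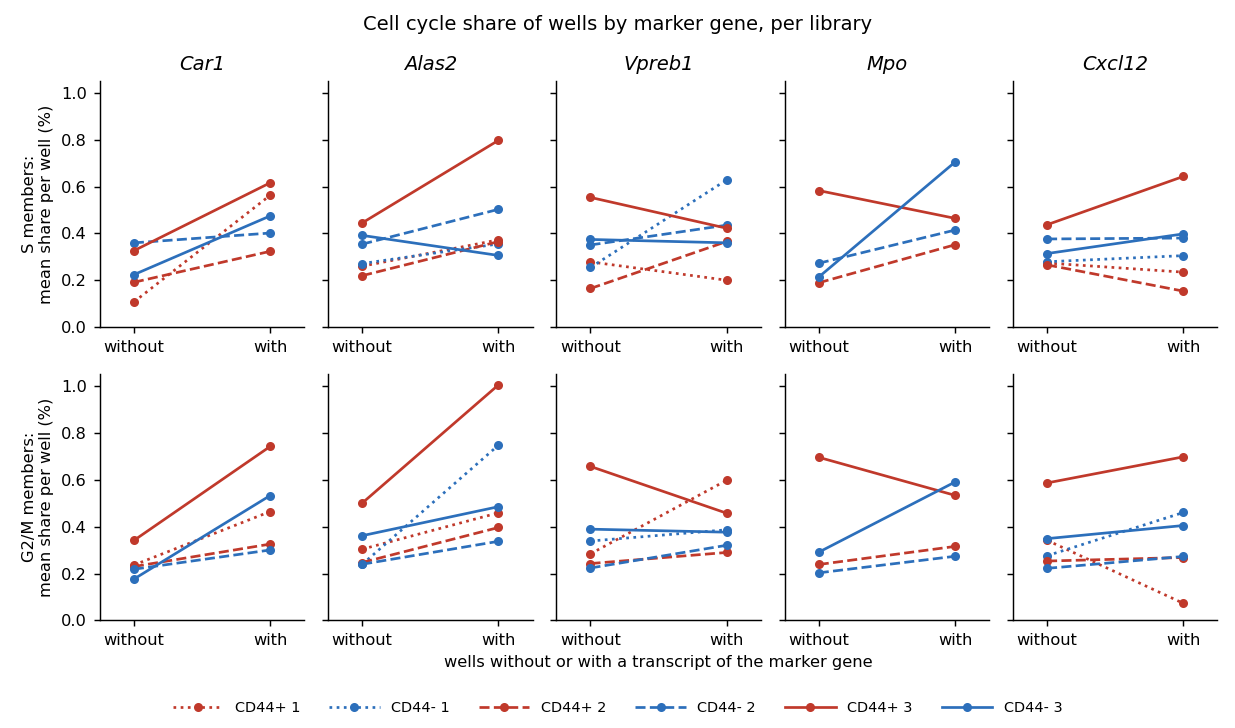
Mean share per well of S (upper row) and G2/M (lower row) members, in percent, in wells without and with a transcript of each marker, 1 line per library that had at least 3 wells on both sides. All 5 lines rise for Car1 in both rows and all 6 rise for Alas2 in the G2/M row, whereas lines rise and fall in both rows for Vpreb1, Mpo and Cxcl12.

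Over all genes, 6 members were higher with Car1 and 0 lower of 25 tested, where 32 of 1173 genes (2.73%) were higher. Cdk1 had the largest difference: 149, 235 and 293 CPM with Car1 against 12.1, 52.5 and 61.0 CPM without in CD44+ replicates 1, 2 and 3, and 171 and 171 CPM against 20.6 and 101 CPM in CD44- replicates 2 and 3 (log2 difference 1.73, SE 0.33, adjusted p = 0.0253 in edgeR). It was higher with Car1 in 5 of 5 libraries. Over both sides Cdk1 had 11 transcripts in CD44+ replicate 1 and 10 and 23 in CD44- replicates 2 and 3. The size of its difference is therefore poorly known. Cenpa, the histone of centromeres, had 372, 276 and 400 CPM against 60.6, 74.2 and 114 CPM in the CD44+ and 171 and 201 CPM against 82.2 and 16.9 CPM in the CD44- libraries (1.53, SE 0.30, adjusted p = 0.0282). The remaining calls were Ccna2 (1.49), Rrm1 (1.31), Top2a (1.21) and Rrm2 (1.10), each with an adjusted p from 0.0426 to 0.0472 and higher in 5 of 5 libraries. Low counts limit several of these sizes too. In CD44- replicates 2 and 3, over both sides, Cenpa had 13 and 21 transcripts, Ccna2 7 and 24, and Rrm1 10 and 16. Ccna2 stood at 0 CPM without Car1 in CD44- replicate 2. Mki67 missed the threshold (1.30, adjusted p = 0.0507). Hmmr, a spindle and hyaluronan-binding protein, was the tested member below 0 (-0.42, SE 0.66), with 461 CPM without Car1 in CD44+ replicate 1. From the other lists, the CDK subunit gene Cks2 (1.65, adjusted p = 0.0194), the dUTPase gene Dut (1.26, adjusted p = 0.0292) and the thymidine kinase gene Tk1 (1.30, adjusted p = 0.0485) were higher too. The calls and the sizes both changed with single libraries, and so did the number of members tested. Without CD44+ replicate 2 or without CD44+ replicate 3, 0 of 16 tested members passed, where 0 of 900 and 1 of 894 genes did. All 16 were above 0. Their median log2 difference was 1.0 and 0.96 over 9 S members, against 0.73 over 14. Over 7 G2/M members it was 1.51 and 1.14, against 0.64 over 11. In the fits without CD44+ replicate 1, CD44- replicate 2 or CD44- replicate 3, the S median fell to 0.61, 0.58 and 0.62. There 18 of 21, 19 of 22 and 18 of 22 tested S members were above 0, and the G2/M medians were 0.96, 0.96 and 0.60. When CD44+ replicate 1 was left out, 3 of 38 tested members passed (Cdk1, Cenpa and Mki67), where 30 of 2770 genes were higher and 77 lower. Leaving out CD44- replicate 3 gave 3 of 41 (Cdk1, Cenpa and Plk1), where 53 of 2421 genes were higher and 167 lower. Leaving out CD44- replicate 2 gave 5 of 43, where 85 of 2703 genes were higher and 207 lower. Leaving out low-quality wells gave 3 of 23 (Cdk1, Cenpa and Mki67), where 25 of 1190 genes were higher and 40 lower.

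**Figure D5:**
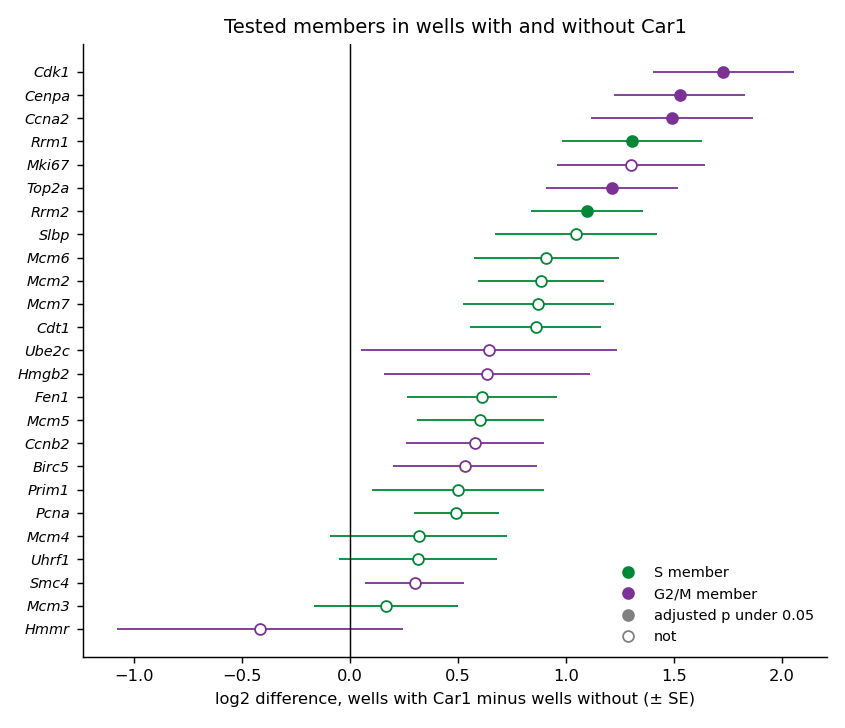
Log2 difference between wells with and without Car1 for the 25 tested members, with bars of 1 SE from edgeR; filled points passed an adjusted p of 0.05. Cdk1 is highest at 1.73 and Hmmr is the member below 0 at -0.42.

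Wells with Alas2 had a higher G2/M share in 6 of 6 libraries, with means of 0.572% ± 0.255 against 0.315% ± 0.103 (SD, n = 6), and a higher S share in 5 of 6 (0.450% against 0.324%). Of these 58 wells, 39 also held Car1, and 17.2% were of low quality against 37.2% of wells without Alas2. They were deeper in every library but CD44- replicate 3, with medians of 21813 against 8357 transcripts in CD44+ replicate 3. The part of these in the difference was not tested. In edgeR 0 of 26 tested members passed, where 8 of 1382 genes (0.579%) did in either direction. At an unadjusted p under 0.05 there were 6 members and 207 of all genes (15%). Ccna2 came closest (1.27, SE 0.27, adjusted p = 0.0830). Set against each other, wells with Car1 and no Alas2 and wells with Alas2 had S shares of 0.443% and 0.469% and G2/M shares of 0.414% and 0.536%, the latter higher with Alas2 in 4 of 5 libraries. After thinning, the G2/M share was higher with Car1 and no Alas2 in 2 of 5 libraries. In CD44+ replicates 2 and 3 the Alas2 wells had medians of 17732 and 21813 transcripts against 6931 and 11937. They were shallower in CD44- replicate 3 alone (1750 against 2481). The part of depth in this was not tested. Again 0 of 25 members passed in edgeR, where 2 of 990 genes (0.202%) did. At an unadjusted p under 0.05 there were 4 G2/M members and 68 of all genes (6.87%), and the tested G2/M members had a median of -0.45 against 0.05 over all genes.

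The other 3 markers did not order the wells in the same way across libraries. With Vpreb1 the S share was higher in 3 and the G2/M share in 4 of 6 libraries, and 0 of 19 members passed in edgeR, where 3 of 810 genes (0.37%) did. At an unadjusted p under 0.05 there were 2 members and 101 of all genes (12.5%). With Mpo both shares were higher in 3 of 4 libraries, and 0 of 52 members passed in edgeR, where 52 of 4781 genes (1.09%) did. At an unadjusted p under 0.05 there were 4 members and 324 of all genes (6.78%). All 24 S members were tested there and 24 were above 0; their median log2 difference was 0.69, against 0.06 over all genes, of which 54.6% were above 0. Rrm2 stood at 1.28 (SE 0.47, adjusted p = 0.455). With at least 3 Mpo transcripts as the rule this did not hold: 11 of 24 S members were above 0 (median -0.01) and 0 of 24 tested G2/M members (median -0.76). With Cxcl12 the S share was higher in 4 and the G2/M share in 5 of 6 libraries, by 0.028 and 0.025 percentage points on average, and 0 of 26 members passed in edgeR, where 11 of 1374 genes (0.801%) did. At an unadjusted p under 0.05 there were 0 members and 84 of all genes (6.11%). With at least 3 Cxcl12 transcripts, 3 of 13 tested S and 0 of 9 tested G2/M members were above 0 (medians -0.55 and -0.70).

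Wells with at least 3 transcripts of 1 marker and none of the other 4 give a description with less overlap, pooled over libraries and untested. The 31 such Car1 wells had mean shares of 0.488% for S and 0.554% for G2/M. The 8 Mpo wells had 0.430% and 0.292%, and the 17 Vpreb1 wells 0.245% and 0.168%, with medians of 0.095% and 0.071% because a few wells were high. The 20 Cxcl12 wells had 0.140% and 0.129%, and after thinning 1 of 20 had at least 5 S transcripts. The 4 Alas2 wells, of a median of 1497 transcripts, had no S transcript and 0.115% for G2/M. The 25 wells with at least 3 Alas2 transcripts, whatever other markers they held, had 0.594% and 0.889% at a median of 12480 transcripts. The 74 wells with none of the 5 markers had 0.172% and 0.209%, at a median depth of 1948 transcripts against 6371 in the Car1 wells.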

How the data were processed

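Single cells were sorted into plates of 384 wells and read by SORT-seq, a plate method that tags each well and each transcript. The deposited values are expected counts: transcripts per gene and well that the authors estimated from molecular tags, unscaled. The submitters' processing notes name BWA 0.7.15 and build mm10; a counter, annotation or strand setting is not given in the sources used here. Undoing a correction for tag saturation with 4096 tags returned 100% of 796931 values above 0 to whole numbers (tolerance 0.011), so that step is inferred from the values; it added 2.32%. Plain counts had been assumed. Wells 1 to 384 were read in row order, which the labels do not state; all 4 tables share these well numbers.

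Of 1536 wells, 343 held at least 1000 transcripts outside the spike-ins. Their values were summed per plate and sort, rounded, and tested with edgeR 4.0.16 under R 4.3.3 (quasi-likelihood, TMM, filterByExpr, two-sided, Benjamini-Hochberg over all genes tested, threshold 0.05). DESeq2 1.42.0 was an alternative. SE is the absolute log2 difference over the square root of F. Marker comparisons used sums with and without at least 1 transcript per library, with the library as a block, where both sides had at least 3 wells. No doublet caller was run on these sorted single cells. The fits were tested on simulated data.

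Correlations of deviations from the sort means were 0.42, 0.29 and 0.34 for same-numbered libraries and -0.35 to 0.07 otherwise. Deviations within a sort sum to 0, so high values for same-numbered libraries push the others down. The low values are therefore no separate support. From the same-numbered values the numbers were taken to pair the libraries, and shared plates also pair replicates 2 and 3. The pairing thus rests partly on the data that the blocked fit used.

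Members, lists and tests were chosen with earlier results of these data known; the limits for low quality were set after the data were seen. Genes named are those past the threshold, the 4 highest and 3 most different of each group, those against their group's sign, and Pcna, Mcm6, Rrm2, Mki67, Top2a, Cdk1 and Ccnb1; in other lists those with the smallest p, apart from a result that is not reported here; in marker comparisons those that passed. Others named were chosen after their values were seen. Counting errors alone bound a value of 0 (3 counts over the library's total). Gene positions come from GENCODE vM21.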

Additional observations from a re-analysis of the deposited data

Results flagged for a closer look

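Wells with under 1000 transcripts, which entered no comparison, held cell cycle transcripts above the limit that a count of 0 allows. S members made up 0.213%, 0.294% and 0.514% of their summed transcripts in the CD44+ wells of replicates 1, 2 and 3 and 0.116%, 0.506% and 0.543% in the CD44- wells of replicates 1, 2 and 3. For G2/M members the values were 0.233%, 0.318% and 0.432% in the CD44+ wells and 0.302%, 0.339% and 0.529% in the CD44- wells. In CD44- replicates 2 and 3, which share plates with the CD44+ sort, the low wells exceeded the kept wells (0.319% and 0.290% for S, 0.214% and 0.333% for G2/M). Over the kept wells of both sorts, those plates held 0.484% and 0.612% for S and 0.429% and 0.698% for G2/M. In the other 4 libraries the low wells lay below the kept ones. Whether transcripts of other wells of the plate reached these wells was not tested.

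In CD44+ replicate 1, 5 wells with Cxcl12 had a G2/M share 0.269 points below that of the other wells (-0.269 percentage points), far from the other 5 libraries, where it was 0.015 to 0.184 points higher. This was the only one of 12 sets of library differences by marker in which a library lay so far from the rest; chance flags about 1 in 20.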

How the results depend on the processing

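Calls between the sorts depended on the settings. Against 25 genes and 0 members, the replicate block that pairs the libraries gave 156 genes and 1 member (Cenph), and it changed no other member's call. DESeq2 gave 305 genes and 1 member (Mcm6), and a filter at 10 counts in all gave 220 and 1 (Cenph). Keeping wells with at least 500 transcripts gave 41 genes, leaving out those above the 99th percentile 5, and leaving out low-quality wells 62. Genes called were 0 after thinning every well to 1000 transcripts, without Cxcl12 wells, and without wells above 16000 transcripts, where the blocked fit also gave 0. Without low-quality wells the blocked fit gave 111 genes and 2 members (Rrm1 and Cenph). The fits without deep wells, these 2 blocked fits and the median over wells were added after the data were seen. Leaving out 1 library gave 0 to 115 genes, 115 without CD44- replicate 1 and 0 without each of the others, and no member.

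With Car1, the 6 members called became 3 of 30 tested at 3 or more transcripts of the marker (Cdk1, Mcm7 and Tacc3). There 43 of 1590 genes were higher and 120 lower, and of the 6 members only Cdk1 was called again. Without low-quality wells 3 of 23 were called, where 25 of 1190 genes were higher and 40 lower. After thinning 0 of 3 tested members passed, where 4 of 177 genes were higher and 9 lower. With 1 library left out 0 to 5 passed. With Alas2, 0 became 3 of 53 tested at 3 or more transcripts (Ube2c, Cenpf and Plk1). All 3 were higher with Alas2, where 68 of 4613 genes were higher and 152 lower. The counts for the other markers stayed at 0 in the settings run. After thinning, no member had enough counts for a test with Alas2, with Mpo or with Car1 and no Alas2.

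The S share differed by 0.002 percentage points between the sorts over wells and by 0.211 over summed libraries, and by -0.0966 to 0.0612 with 1 library left out. For G2/M it was 0.078 and 0.206, with -0.0412 without CD44+ replicate 3 as the lowest and 0.152 as the highest value. With mitochondrial genes, Kcnq1ot1 and its companions out of the denominator, G2/M was higher in CD44+ on all 3 pairs (0.638% against 0.443%). So it was without Cxcl12 wells (0.394% against 0.282%). Low-quality wells left out, S was 0.492% against 0.402% and G2/M 0.523% against 0.385%, each higher on 2 pairs. Without wells above 16000 transcripts the differences were -0.066 and 0.017, each higher on 1 pair. The median over tested S members was -0.10 after thinning, where 3 were tested, and 0.73 to 1.13 with 1 library left out, against 0.57 to 1.03 for G2/M. Without CD44+ replicate 3, 15 of 19 tested G2/M members were above 0, and without CD44- replicate 2, 19 of 25.

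Of the members followed singly, 7 changed sign, none of which had passed. Cdk1 was -0.21 without deep wells in the blocked fit, where Cenpf was 0.0041. Mcm7 was -0.10 and Pcna -0.082 after thinning, and Hmgb2 -0.0082 in wells with at least 2000 transcripts. With the filter at 10 counts Cenpf was 0.20, Hells 0.21 and Rrm2 0.0079. With wells from 500 transcripts Cenpf was 0.061 and Hells 0.14, with DESeq2 Hells was 0.016, and without Cxcl12 wells Rrm2 was 0.25. With 1 library left out Cenpf ranged from -0.46 to 0.36, Hells from -0.36 to 0.14, Hmgb2 from -0.15 to 0.65 and Rrm2 from -0.45 to 0.073. The cause of these changes was not tested.

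Depth limits the rare members: Ccnb1 at 0 in CD44- replicate 2 allows up to 29.6 CPM, and Cenph rests there on 1 to 3 transcripts a library.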

Other observations

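Ccnb1 and Cenph lie next to each other on the minus strand of chromosome 13, Ccnb1 from 100778650 to 100786570 and Cenph from 100759674 to 100775899, and both are among the 3 G2/M members with the largest difference between the sorts. Cenph was found in 7 of 56, 23 of 95 and 49 of 87 kept wells of CD44+ replicates 1, 2 and 3. In CD44- replicates 1, 2 and 3 it was found in 2 of 44, 1 of 24 and 3 of 37. No well held more than 14.0 transcripts of it. Ccnb1 was found in 10, 20 and 48 against 5, 0 and 6 of the same wells. Kept wells are more numerous in the CD44+ sort on every pair, and deeper there on pairs 2 and 3.

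The S share of wells had a different sign of relation to the mitochondrial share in the 2 sorts. Across wells its Spearman's rho with the mitochondrial share was -0.19, -0.37 and -0.40 in CD44+ replicates 1, 2 and 3, and 0.38, 0.37 and 0.81 in CD44- replicates 1, 2 and 3. With the share of Kcnq1ot1 and its companions it was -0.63, -0.32 and -0.51 against -0.48, 0.06 and 0.36, so that CD44- replicate 1 lay among the CD44+ libraries. All of these are descriptions across 24 to 95 wells of 1 library, whose shares have a common denominator.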
